A study of Mus musculus with 8 samples.

Results

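The genes described here are 36 genes of the integrated stress response and of the endoplasmic reticulum (ER) stress response. They were chosen by name, and all 36 were found among the 54146 genes of both single-cell count tables. They comprise 11 regulators and stress outputs around the transcription factor Atf4, 11 amino acid genes (7 enzymes of amino acid and one-carbon synthesis and 4 transporters) and 14 ER genes. Droplet libraries (10x Genomics) came from mouse embryonic stem (mES) cells labelled untreated or CX-5461, grown for 2 days in LIF/2i medium on gelatin with mouse embryonic fibroblast (MEF) feeder cells. CX-5461 blocks RNA polymerase I, the enzyme that makes most rRNA; its dose and time in this experiment are not given in the sources used here. The labels list 4 samples per condition, but the barcodes of a condition stand in 1 table with no sample of origin, and 1 library per condition leaves no replicate to test against. Barcodes were renumbered in the tables, so those shared between libraries could not be counted.

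The integrated stress response is a pathway in which kinases that sense lack of amino acids, heme loss, viral RNA or misfolded ER proteins phosphorylate the initiation factor eIF2. General protein synthesis then falls, while the mRNA of Atf4 is translated more, and Atf4 protein switches on genes for amino acid synthesis and uptake as well as regulators such as Ddit3 (CHOP), Atf3 and Trib3. ER stress feeds into this pathway through the kinase Perk and has branches of its own, Ire1 with Xbp1 and Atf6, which raise chaperones and folding enzymes of the ER. Atf4 is thus mostly controlled at translation, and its mRNA level is only a partial measure of its activity.

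Cells were followed in 3 groups. Deep ES cells, with at least 5000 unique molecular identifiers (UMIs, each marking a captured RNA molecule) and a mitochondrial share of UMIs of 10% or less, numbered 2449 in control and 4014 in CX-5461, with medians of 15685 and 14689.5 UMIs per cell. High-mitochondrial cells, over 10% and up to 20%, numbered 769 and 484 and were shallower, with medians of 2049 and 5718 UMIs. Feeders, the cells of a cluster led by fibroblast markers, numbered 216 and 162, with medians of 20618.5 and 23608.5 UMIs. The pluripotency factor Pou5f1 stood at 946 UMIs per 1000000 (CPM, summed over the cells of a group) in control and 751 in CX-5461 deep ES cells, against 52.5 and 21.4 in feeders; the collagen Col1a2 stood at 0.925 and 0.730 CPM in deep ES cells against 745 and 1248 in feeders. In high-mitochondrial cells the ES markers summed to 7775 CPM in control and 7429 in CX-5461, against 7686 and 8150 CPM in deep ES cells, but their members differed. Relative to the median gene, 6 of 11 were called lower and 0 higher in control, against 20.5% and 23.7% of all genes. In CX-5461, 4 of 11 were called lower and 1 higher, against 17.1% and 16.4%. Pou5f1 stood at 477 and 554 CPM. Col1a2 stood there at 1.71 and 0.328 CPM.

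Change was measured as the log2 ratio of CX-5461 over control CPM, centred on the median gene of the same comparison, and a gene was called higher or lower when it stood at least 1.5-fold from that median gene (0.58 on the log2 scale). Ratios were read only for genes with at least 200 UMIs over both sides. The median gene itself was at a log2 ratio of 0.36 in deep ES cells, 0.36 in high-mitochondrial cells and 0.16 in feeders. In deep ES cells, where ribosomal protein genes took 28.8% of control and 23.6% of CX-5461 UMIs, 32 of the 36 members had enough UMIs, and 4 were called higher and 11 lower, against 21.3% of all 11668 genes called higher and 17.1% called lower. Relative to library totals, without centring, the split was 9 higher and 5 lower, against 36.5% and 7.5% of all genes. Genes on the marker lists of other cells moved with this comparison, though not all in 1 direction. The fibroblast markers summed to 196 CPM in control and 295 in CX-5461 deep ES cells. Of the 6 with enough UMIs, 4 were called higher and 1 lower, at -2.64. The collagens Col1a2 (0.925 and 0.730 CPM) and Col3a1 (0.285 and 0.519 CPM) made up little of these sums. Which cells this RNA came from was not tested. The macrophage markers summed to 6.83 and 26.7 CPM, and only 1 of these 6 genes had enough UMIs for a ratio, which was called higher. Without cells that held at least 5 UMIs of fibroblast markers (1797 and 2424 cells left), 4 members were called higher and 7 lower. Phgdh and Shmt2 fell short of the fold at -0.53 and -0.52, and Chac1 and Aldh18a1 had too few UMIs left. The share of all genes called in these remaining cells was not computed. The members thus did not move as a block: a few stress outputs were far above the median gene, the amino acid genes were below it, and the ER genes were within 1.5-fold of it, though 5 of them were past that fold on library totals.

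**Figure D1:**
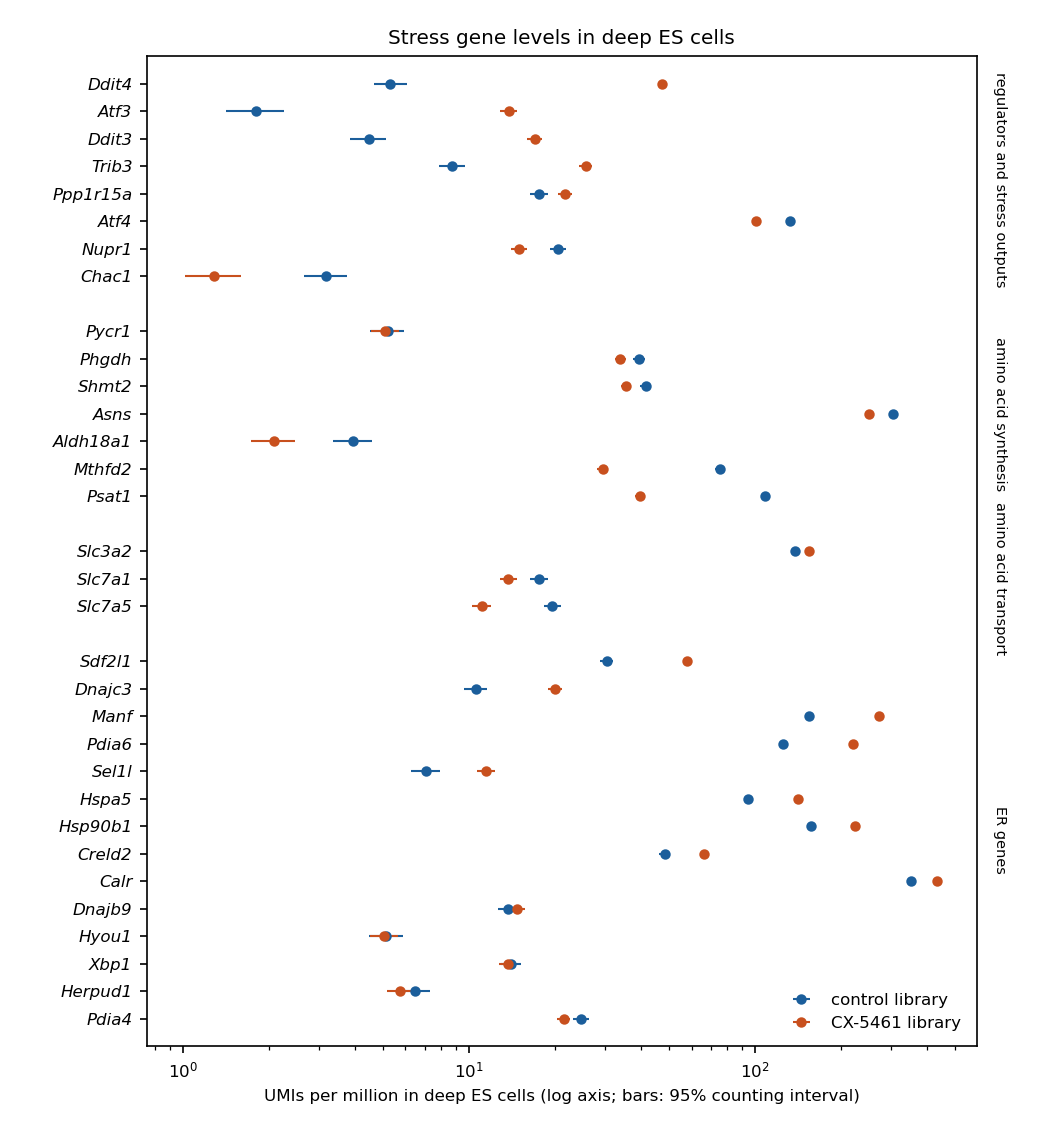
Levels of the 32 members with at least 200 UMIs in deep ES cells, in CPM on a log axis, for the control (blue) and CX-5461 (orange) library; bars are 95% counting intervals and genes are grouped by role. Ddit4, Atf3, Ddit3 and Trib3 lie to the right of control, while Psat1 and Mthfd2 lie to the left.

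Among the regulators and stress outputs, 4 genes rose past the fold in deep ES cells. Ddit4 (REDD1), an inhibitor of mTORC1 that also belongs to the known p53 targets, went from 5.31 to 47.5 CPM, a ratio of 8.94 (95% counting interval 7.80 to 10.3) and a centred log2 ratio of 2.80. Atf3, a transcription factor induced by many stresses, went from 1.80 to 13.8 CPM, a ratio of 7.63 (6.03 to 9.79; centred 2.57). Ddit3, which encodes CHOP, a transcription factor of prolonged ER stress and cell death, went from 4.46 to 17.0 CPM (centred 1.57). Trib3, a pseudokinase that restrains Atf4 signalling, went from 8.75 to 25.6 CPM (centred 1.19). These 4 genes stayed above control on every scale used, since all of their ratios to library totals were above 2.92. Their UMIs were spread over many cells: the 1% of CX-5461 cells richest in each gene held 9.06% of the Ddit4 UMIs, 19.1% of those of Atf3, 12.6% of those of Ddit3 and 9.45% of those of Trib3.

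The regulator itself and other outputs went the other way. Atf4 mRNA went from 133 to 101 CPM (centred -0.76). Chac1, a glutathione-degrading enzyme that is a sensitive target of Atf4, went from 3.15 to 1.28 CPM (centred -1.66) on 133 and 79 UMIs. Nupr1, a small stress-induced chromatin protein, went from 20.5 to 14.99 CPM (centred -0.81). Ppp1r15a (GADD34), which brings a phosphatase to eIF2 and ends the response, stood at 17.6 and 21.7 CPM and at -0.06 from the median gene. Another 3 of the 11 had too few UMIs for a ratio: Vldlr, a lipoprotein receptor, had 19 and 43 UMIs, Cebpb, a leucine zipper transcription factor, 4 and 17, and Stc2, a secreted glycoprotein, 42 and 125. Ddit3 lies on chromosome 10 at positions 127290774 to 127296288 of GRCm38 and overlaps the methionyl-tRNA synthetase gene Mars on the opposite strand. Another entry with the symbol Ddit3 overlaps it on the same strand, and the counts of that entry were not read here. Whether the counting used strand is not stated. For the Ddit3 entry read here, the deposited tables marked 0 counts as shared with another gene.

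Genes induced by Atf4 often carry a C/EBP-ATF element near their start. The letters TTGCATCA, searched on both strands of the 300 bases around the start of each RefSeq gene (250 before and 50 after), were found in 251 of 27025 promoters, 0.929%. Of the members, 33 had an entry in that table, and 3 of 11 regulators and stress outputs, 1 of 7 synthesis enzymes, 1 of 3 transporters and 1 of 12 ER genes held the letters. They are shown with 5 bases on either side, 5′ to 3′ in the direction of the gene (GRCm38.p6), because these genes moved in different directions; capitals mark the element.
Atf3 (chr1:191183431-191183448, minus strand): cgcacTTGCATCAccaag
Chac1 (chr2:119351044-119351061, plus strand): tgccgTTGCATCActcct
Nupr1 (chr7:126625568-126625585, minus strand): ccagaTTGCATCAgacag
Herpud1 (chr8:94386312-94386329, plus strand): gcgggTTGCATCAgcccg
Pycr1 (chr11:120643839-120643856, minus strand): gtgtaTGATGCAAtgcac
Slc7a11, distal (chr3:50443667-50443684, minus strand): gtggcTGATGCAAacctg
Slc7a11, proximal (chr3:50443648-50443665, minus strand): agaatTTGCATCAtcatg
In deep ES cells Atf3 was called higher, Chac1 and Nupr1 were called lower, and Pycr1 and Herpud1 stood at -0.39 and -0.54 from the median gene. Slc7a11 had 32 and 10 UMIs, too few for a ratio. The same letters thus stood before genes above and below the median gene, and the match is a description of these windows, not of binding.

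The amino acid genes lay below the median gene. Of the 11, 10 had enough UMIs, and 8 were called lower and 0 higher, against 17.1% and 21.3% of all genes. Their median centred log2 ratio was -0.68. On library totals 4 were past the fold lower, Psat1, Mthfd2, Aldh18a1 and Slc7a5, and 0 higher, against 7.5% and 36.5% of all genes. Their summed level went from 752 to 574 CPM, and the median cell carried 0.0701% of its UMIs on them in control and 0.0531% in CX-5461 (10th to 90th percentile of cells 0.0365% to 0.122% and 0.0252% to 0.0907%), so the cells of both libraries overlapped widely.

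Among the synthesis enzymes, the serine pathway and mitochondrial one-carbon enzymes separated. Psat1, the aminotransferase of serine synthesis, went from 108 to 39.5 CPM, a ratio of 0.364 (0.347 to 0.383; centred -1.82). Mthfd2, the mitochondrial methylenetetrahydrofolate dehydrogenase, went from 75.3 to 29.4 CPM, a ratio of 0.390 (0.368 to 0.413; centred -1.72). Phgdh, which opens serine synthesis, went only from 39.5 to 33.8 CPM, and Shmt2, the mitochondrial serine hydroxymethyltransferase, from 41.4 to 35.4 CPM; both were at -0.59, on the edge of the 1.5-fold line. Asns, asparagine synthetase, went from 303 to 249 CPM (centred -0.64). Aldh18a1, the entry enzyme of proline synthesis, went from 3.94 to 2.08 CPM (centred -1.28), while Pycr1, the last enzyme of that path, stood at 5.19 and 5.08 CPM (centred -0.39). The counting intervals of Psat1 and Mthfd2 did not reach those of Phgdh, Shmt2 or Asns.

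Of the transporters, Slc7a5, the light chain of the large neutral amino acid carrier LAT1, went from 19.6 to 11.1 CPM (centred -1.18). Slc7a1, the cationic amino acid carrier, went from 17.6 to 13.7 CPM (centred -0.72). Slc3a2, the shared heavy chain that pairs with Slc7a5 and with the cystine carrier Slc7a11, stood at 138 and 154 CPM (centred -0.20). On library totals the amino acid genes had a median log2 ratio of -0.32, so the sign of the group was the same on both scales.

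The 14 ER genes all had enough UMIs in deep ES cells, and 0 were called in either direction; on library totals 5 were past the fold higher, Sdf2l1, Dnajc3, Manf, Pdia6 and Sel1l, against 36.5% of all genes, and 0 lower. Their median was 0.13 from the median gene and 0.49 on library totals, with the sum going from 1043 to 1508 CPM. The median cell carried 0.101% of its UMIs on them in control and 0.138% in CX-5461 (10th to 90th percentile 0.0508% to 0.178% and 0.0719% to 0.242%). Nearest to the line were Sdf2l1, a component of an ER chaperone complex, at 30.3 and 57.7 CPM (centred 0.57), Dnajc3, an ER cochaperone of BiP, at 10.6 and 19.9 CPM (0.55), and Manf, a secreted ER stress protein, at 154 and 272 CPM (0.46). Pdia6, a disulfide isomerase, stood at 126 and 220 CPM (0.44), and Sel1l, the scaffold of an ER degradation ligase, at 7.07 and 11.5 CPM (0.34).

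The classical markers of the unfolded protein response were closer to the median gene. Hspa5 (BiP), the main ER chaperone, stood at 94.5 and 141 CPM (centred 0.21), Hsp90b1 (GRP94) at 156 and 225 CPM (0.16), Creld2, a small ER folding factor, at 48.3 and 66.6 CPM (0.10) and Calr, the calcium-binding lectin chaperone, at 352 and 434 CPM (-0.06). Below the median gene were the cochaperone Dnajb9 at 13.7 and 14.7 CPM (-0.25), the large chaperone Hyou1 at 5.14 and 5.06 CPM (-0.39), Xbp1, the transcription factor of the Ire1 branch, at 14.04 and 13.66 CPM (-0.40), Herpud1, an ER degradation factor, at 6.50 and 5.76 CPM (-0.54) and the disulfide isomerase Pdia4 at 24.7 and 21.4 CPM (-0.56). These counts measure total Xbp1 mRNA and do not tell its spliced form apart.

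**Figure D2:**
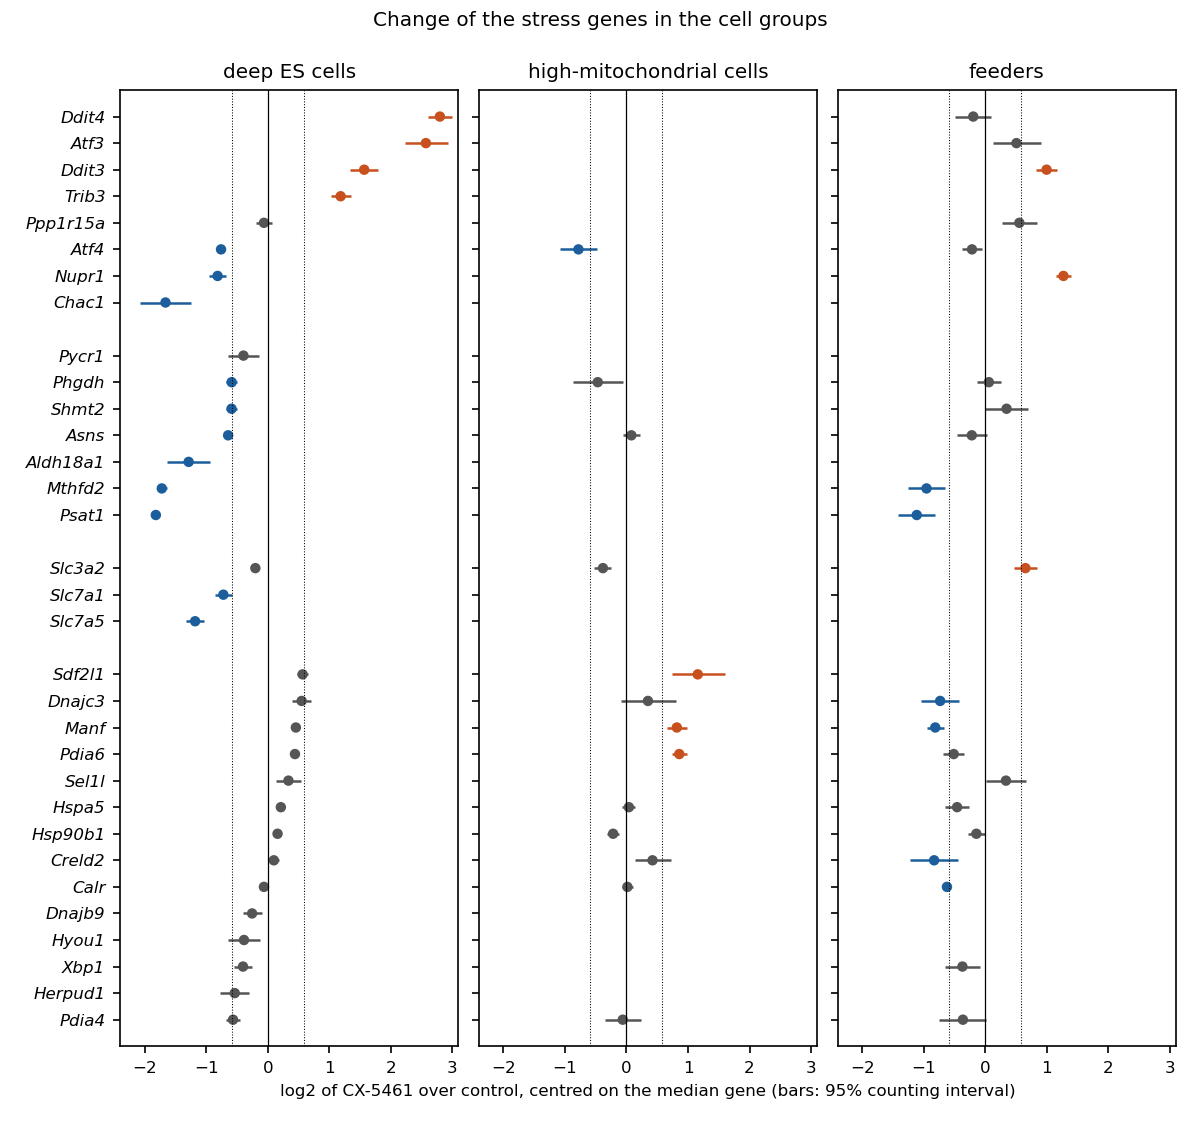
Log2 ratio of CX-5461 over control, centred on the median gene, in deep ES cells, high-mitochondrial cells and feeders. Members are shown with at least 200 UMIs both in that group and in deep ES cells, so Slc7a11 is left out in feeders. Bars are 95% counting intervals, dotted lines mark 1.5-fold, and genes past it are orange (higher) or blue (lower). The stress outputs at the top move in deep ES cells, Sdf2l1, Manf and Pdia6 in high-mitochondrial cells, and Nupr1 and Ddit3 in feeders.

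Other genes of the pathways, from lists fixed with earlier results of these data known, were read in the same cells. Of 13 genes of the eIF2 pathway (kinases, eIF2 and eIF2B subunits and a phosphatase subunit), 0 were called higher and 2 lower, Eif2s2 (1373 to 791 CPM, centred -1.16) and Eif2s3x (50.5 to 33.1 CPM, -0.97); at the other end were Eif2ak3, the kinase Perk (0.29), and Eif2b2 (0.10). Of 20 cytosolic tRNA synthetases, which include Atf4 targets, 0 were called higher and 7 lower; Nars (-1.05) and Tars (-0.70) were lowest and Cars (0.54) and Qars (0.44) highest. Of 17 other Atf4 targets with enough UMIs, 4 were called higher and 6 lower. Gdf15, a secreted stress hormone that is also a known p53 target, went from 3.63 to 22.2 CPM (2.25), and Gpt2, the mitochondrial alanine aminotransferase, from 6.35 to 15.1 CPM (0.89), while Pck2, the mitochondrial phosphoenolpyruvate carboxykinase, went from 10.1 to 6.02 CPM (-1.11) and Slc7a3, a cationic amino acid carrier, from 23.5 to 14.1 CPM (-1.10). Of 38 other ER folding genes, 3 were called higher and 2 lower; Sil1 (1.65) and Derl3 (0.92) were highest and Mesd (-1.07) and Hspa13 (-0.77) lowest. Of all genes 21.3% were called higher and 17.1% lower, so the shares of Atf4 targets called higher and of eIF2 genes called lower were near the background. The shares of synthetases (7 of 20) and of Atf4 targets (6 of 17) called lower were above it. On library totals 1 eIF2 gene, 4 synthetases, 7 Atf4 targets and 9 ER folding genes were past the fold higher. In the same order 2, 1, 2 and 1 were past it lower, against 36.5% of all genes higher and 7.5% lower. The other 33 ER folding genes were within 1.5-fold of the median gene.

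Within the CX-5461 library the 4 stress outputs were not even across clusters, which were made without the members. The largest ES cluster, of 2351 cells, held Ddit4 at 29.4 CPM, Atf3 at 9.54, Ddit3 at 13.8 and Trib3 at 20.9, and the next, of 1308 cells, held 60.4, 16.5, 20.6 and 29.6 CPM. A cluster of 287 cells led by the keratin gene Krt15 held 170, 40.6, 33.6 and 58.8 CPM. Its Asns was at 105 CPM against 266 and 239 in those other clusters, and its ER genes summed to 1093 CPM against 1453 and 1662. Of these 3 clusters, the one highest in the 4 outputs was thus lowest in Asns and in ER genes. A smaller cluster of 88 cells, with the pseudogene Zscan4-ps3 as its leading gene, held 64.4, 21.2, 14.1 and 14.1 CPM of the outputs, with Asns at 274 CPM and ER genes at 1471 CPM. In the control library 2 clusters, of 1386 and 978 cells, held Ddit4 at 5.41 and 5.07 CPM and Asns at 309 and 290 CPM. These were below and above the values of each of these 4 CX-5461 clusters. Clusters with a high mitochondrial share differed in Asns. In CX-5461 a cluster of 494 cells, with a median share of 15.7%, held the outputs at 31.4, 9.02, 12.1 and 22.1 CPM. Its Asns, at 457 CPM, was above that of the control clusters. A control cluster of 1169 cells, with a median share of 11.9%, held Ddit4 at 2.90 and Asns at 334 CPM.

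In high-mitochondrial cells, CX-5461 against control, 13 members had at least 200 UMIs, of which 3 were called higher and 1 lower, against 19.9% of 2910 genes called higher and 24.6% lower; relative to library totals the split was 5 higher and 0 lower, against 36.2% and 14.8% of all genes. All 3 higher members were ER genes: Sdf2l1 went from 31.4 to 89.8 CPM (centred 1.16), Pdia6 from 407 to 946 CPM (0.86) and Manf from 211 to 477 CPM (0.82). The lower member was Atf4, from 95.2 to 71.1 CPM (-0.78), followed by Phgdh (47.3 to 43.9 CPM, -0.47) and Slc3a2 (390 to 384 CPM, -0.38). The 9 ER genes with enough UMIs had a median of 0.35, with Hspa5 at 591 and 779 CPM (0.04). The stress outputs were too rare for a called ratio here, but Ddit4 had 7 and 106 UMIs, Trib3 9 and 67, Ddit3 3 and 40 and Atf3 1 and 36. Chac1 had 0 UMIs in both libraries, which allows up to 2.10 and 1.21 CPM. The control cells of this group were shallower than the CX-5461 cells. With at least 3000 UMIs per cell (135 and 475 cells) the ER median was 0.27 and 4 members were called higher. The share of all genes called at that depth was not computed.

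Inside each library, high-mitochondrial cells differed from deep ES cells in more of the ER genes than of the other members. In the control library 11 of the 14 ER genes were called higher, with a median of 1.25, against 23.7% of 8283 genes called higher and 20.5% lower. With CX-5461, 11 of 14 were also called higher, with a median of 0.95, against 16.4% of 10698 genes called higher and 17.1% lower. On library totals 11 of the 14 were past the fold higher in control, where 19.2% of all genes were higher and 26.4% lower, and 13 in CX-5461, where 18.8% were higher and 14.8% lower. The sum of the ER genes went from 1043 to 3019 CPM in control and from 1508 to 4488 CPM in CX-5461, and the median cell's share was 0.273% and 0.408% in the high-mitochondrial groups.

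Hspa5 moved most: it went from 94.5 to 591 CPM in control (ratio 6.25, 5.84 to 6.70; centred 2.77) and from 141 to 779 CPM in CX-5461 (ratio 5.53, 5.28 to 5.79; 2.41). Hsp90b1 went from 156 to 714 CPM and from 225 to 788 CPM (2.32 and 1.75), Pdia6 from 126 to 407 and from 220 to 946 CPM (1.82 and 2.05), Pdia4 from 24.7 to 85.5 and from 21.4 to 105 CPM (1.92 and 2.24) and Calr from 352 to 794 and from 434 to 1029 CPM (1.30 and 1.19). Dnajc3, Dnajb9, Sel1l and Creld2 were also called higher in both libraries, between 0.77 and 1.75. Herpud1 (1.01) and Hyou1 (1.35) were called in control, and Manf (0.75) and Xbp1 (0.67) in CX-5461. Sdf2l1 was called in neither, at 0.18 and 0.58. Of the other ER folding genes, 23 of 30 with enough UMIs were called higher in control and 28 of 38 in CX-5461, among them the lectin chaperone Canx (1.78 and 1.36) and the disulfide isomerase Pdia3 (1.71 and 1.77).

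On the Atf4 side the calls were fewer and mixed. The amino acid genes summed to 956 CPM in high-mitochondrial against 752 in deep ES cells in control and to 1014 against 574 CPM in CX-5461, and the median cell's share was 0.0849% against 0.0701% and 0.0923% against 0.0531%. Of the 11 regulators and stress outputs, only 5 in control and 7 in CX-5461 had enough UMIs. Among these 0 were called higher in either library, against 23.7% and 16.4% of all genes, so few calls could be made. Atf4 stood at -0.35 in control and -0.56 in CX-5461. Of the amino acid genes, Slc3a2 was called higher in both, from 138 to 390 CPM (1.63) and from 154 to 384 CPM (1.26), Slc7a1 in control (0.96) and Asns in CX-5461, from 249 to 447 CPM (0.79), while Psat1 (-0.99) and Pycr1 (-3.06, on 1 UMI in the high-mitochondrial cells) were called lower in control and Pycr1 (-1.20) in CX-5461. Trib3 (-0.64, 9 UMIs) was also called lower in control and Nupr1 (-1.11) in CX-5461. The median of the amino acid genes was 0.25 and 0.29, and in the control library it was -0.030 with a TMM scaling factor in place of the median gene.

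**Figure D3:**
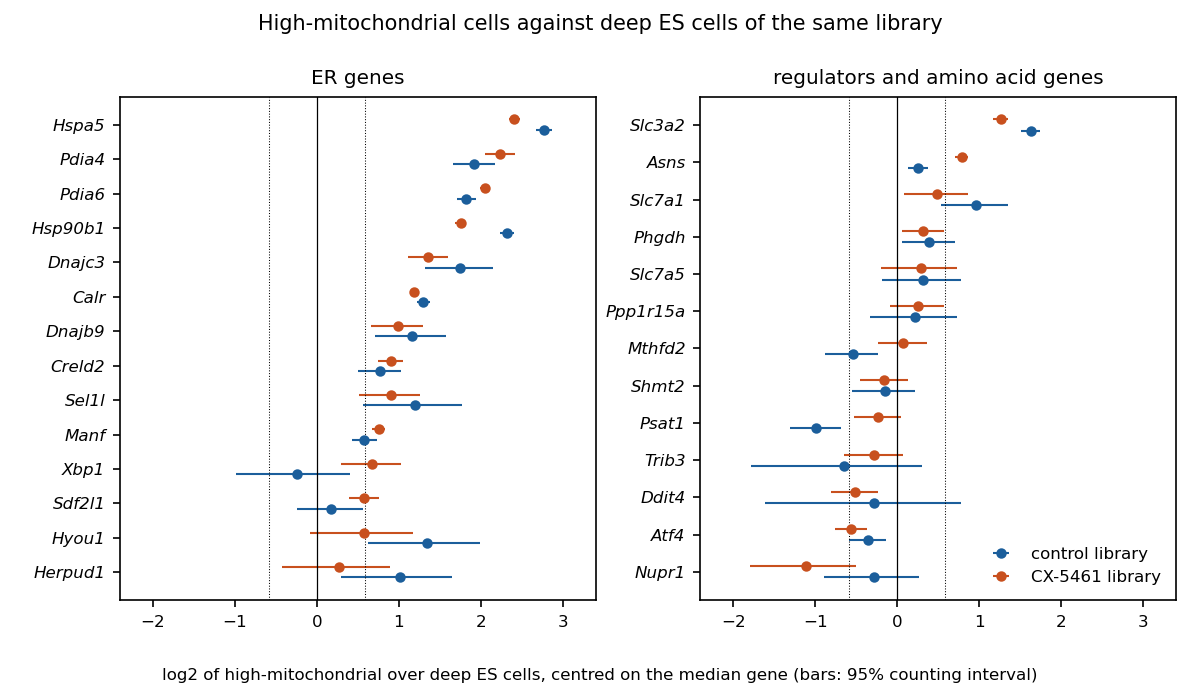
Log2 ratio of high-mitochondrial over deep ES cells, centred on the median gene, for ER genes (left) and for regulators and amino acid genes (right) in the control (blue) and CX-5461 (orange) library; bars are 95% counting intervals, dotted lines mark 1.5-fold, and genes are shown with at least 200 UMIs over both sides and at least 3 in each high-mitochondrial group. All ER genes but Xbp1 in control lie to the right of the median gene, and on the right side only Slc3a2 is past 1.5-fold in both libraries.

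Some of these ER genes carry a promoter element known from ER stress genes, which was picked after values had been seen. The members were chosen by name as stress genes, so the share of them with this element does not stand apart from that choice. The ER stress response element (ERSE), bound by Atf6 with NF-Y, consists of the letters CCAAT, 9 bases of any kind and CCACG. Searched on both strands of the same windows, it was found in 35 of 27025 RefSeq promoters (0.130%; 37.9% hold CCAAT and 32.7% CCACG alone). It was in 6 of the 12 ER genes with an entry, in 3 of 30 other ER folding genes and in 0 of the 11 regulators and 10 amino acid genes. The elements are shown because the genes that carry them were all higher in high-mitochondrial cells; capitals mark the outer parts of the element, which read CGTGG and ATTGG where it lies on the other strand, with 5 bases on either side (GRCm38.p6, in the direction of the gene).
Hspa5 (chr2:34772020-34772048, plus strand): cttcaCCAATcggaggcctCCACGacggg
Hsp90b1, distal (chr10:86705633-86705661, minus strand): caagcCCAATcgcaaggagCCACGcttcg
Hsp90b1, proximal (chr10:86705528-86705556, minus strand): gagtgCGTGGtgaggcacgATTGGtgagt
Pdia6 (chr12:17266486-17266514, plus strand): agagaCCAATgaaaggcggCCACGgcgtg
Dnajc3 (chr14:118937822-118937850, plus strand): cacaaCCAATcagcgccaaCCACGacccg
Calr (chr8:84847070-84847098, minus strand): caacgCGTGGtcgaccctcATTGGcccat
Creld2 (chr15:88819515-88819543, plus strand): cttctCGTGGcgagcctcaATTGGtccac
The elements lay within 250 bases before the RefSeq start, the nearest in Hspa5, 47 to 65 bases before it. All 6 genes were called higher in high-mitochondrial cells of both libraries, with medians of 1.78 and 1.56. Without the element, 4 of the 6 ER genes were, with medians of 1.08 and 0.79. The share of all genes called higher was 23.7% in control and 16.4% in CX-5461. For CX-5461 over control in deep ES cells, 0 of 6 were called in either set, with medians of 0.19 and -0.33. There 21.3% of all genes were called higher and 17.1% lower. The same comparison in high-mitochondrial cells had medians of 0.19 over the 6 genes with the element and 0.55 over 2 without. In each set 1 was called higher, against 19.9% of all genes. In feeders 3 of the 6 genes with the element were called lower, with a median of -0.57. Without it 0 of 3 were, with a median of -0.36, and of all genes 15.4% were called lower. The element is a match of letters, and whether a factor was bound there was not measured.

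**Figure D4:**
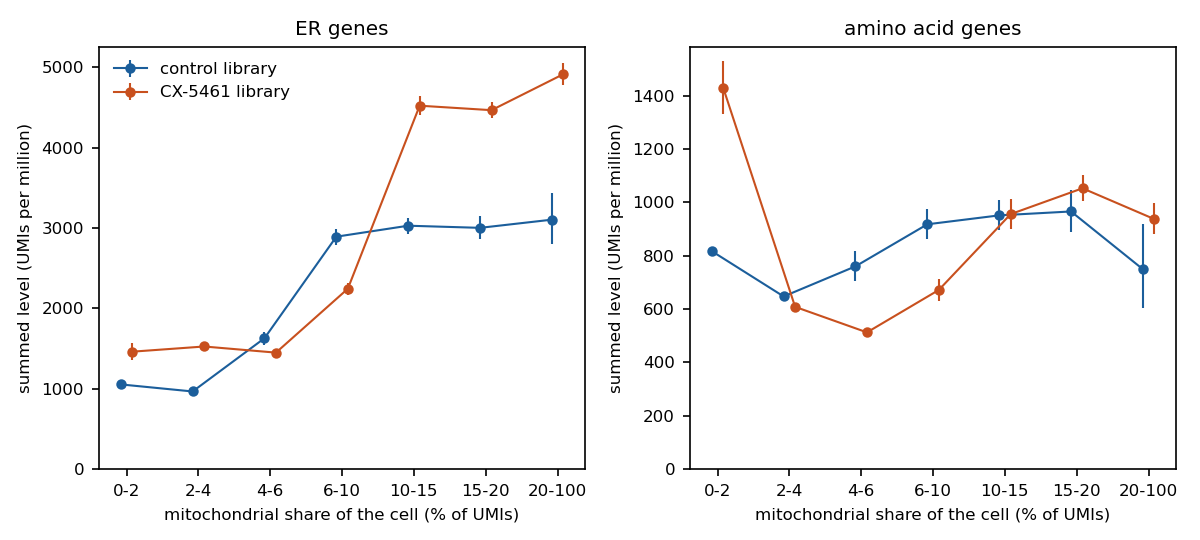
Summed level of the 14 ER genes (left) and the 11 amino acid genes (right), in CPM, by the mitochondrial share of the cell, for barcodes outside the feeder cluster in the control (blue) and CX-5461 (orange) library. Bars are 95% counting intervals. The last bin holds the barcodes removed by the 20% limit, which were not clustered and may include feeders. The ER genes stand between 966 and 1053 CPM in control and between 1461 and 1525 in CX-5461 up to 4%, and at 3001 and 4465 CPM or more from 10% on, while the amino acid genes are highest in the lowest bin of CX-5461, which holds 50 cells.

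The ER genes rose with the mitochondrial share in steps that came earlier in the control library. In control cells outside the feeder cluster the sum was 1053 CPM at 0 to 2% mitochondrial UMIs (1362 cells), 1628 CPM at 4 to 6% (113 cells), 2891 CPM at 6 to 10% (305 cells) and 3028 CPM at 10 to 15% (467 cells). In the CX-5461 library it was 1525 CPM at 2 to 4% (1959 cells), 1449 at 4 to 6% (1908 cells), 2244 at 6 to 10% (134 cells) and 4521 at 10 to 15% (177 cells). Within 2 to 4% the sum was 966 CPM in control, and within 6 to 10% control was above CX-5461. The mitochondrial share and depth moved together here: control cells of 6 to 10% include many of the 333 shallow control cells under 5000 UMIs, whose ER genes summed to 2684 CPM. Fibroblast markers also moved with this contrast, from a sum of 196 to 474 CPM in control and from 295 to 490 CPM in CX-5461. Col1a2, a fibroblast marker that was high in feeders, was at or under 1.71 CPM. The part of depth and of RNA from other cells in the ER levels was not tested.

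In feeders, 23 members had enough UMIs, and 3 were called higher and 7 lower, against 14% of 3918 genes called higher and 15.4% lower; on library totals the split was 5 higher and 5 lower, against 20.6% and 11.1%. The 3 higher members were Nupr1, from 183 to 492 CPM (ratio 2.69, 2.48 to 2.92; centred 1.27), Ddit3, from 92.9 to 207 CPM (ratio 2.23, 1.98 to 2.51; 1.00), and Slc3a2, from 86.6 to 152 CPM (0.65). The other 4 regulators and outputs with enough UMIs were not past the fold: Ddit4 stood at 46.8 and 45.6 CPM (-0.20), Atf3 at 21.5 and 34.1 CPM (0.51), Ppp1r15a at 40.4 and 66.3 CPM (0.55) and Atf4 at 145 and 139 CPM (-0.22). On library totals Atf3 and Ppp1r15a were past it. The remaining 5 had too few UMIs for a call: Trib3 had 37 and 74 UMIs, Cebpb 66 and 25, Vldlr 82 and 77, Stc2 20 and 34 and Chac1 28 and 17.

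The 7 lower members in feeders were 3 amino acid genes and 4 ER genes. Slc7a11, the cystine carrier that was nearly absent from ES cells, went from 71.6 to 25.2 CPM (-1.66), Psat1 from 67.7 to 34.9 CPM (-1.11) and Mthfd2 from 61.1 to 35.2 CPM (-0.95). Creld2 went from 34.9 to 21.9 CPM (-0.83), Manf from 269 to 171 CPM (-0.81), Dnajc3 from 54.3 to 36.4 CPM (-0.73) and Calr from 896 to 650 CPM (-0.62). Hspa5 stood at 116 and 94.3 CPM (-0.46) and Hsp90b1 at 209 and 211 CPM (-0.14), and the median was -0.48 over 10 ER genes and -0.22 over 7 amino acid genes. Psat1 and Mthfd2 were thus called lower in both deep ES cells and feeders, whereas Nupr1 and Manf differed in direction between cell groups.

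The feeder cells of both libraries also differed in other markers. The fibroblast markers summed to 17339 CPM in control and 14887 in CX-5461, with 9 of 15 genes called higher and 3 lower. The macrophage markers summed to 207 and 17.3 CPM, and the ES markers to 533 and 433 CPM. Without feeders that carried at least 5 UMIs of ES markers, 52 control and 47 CX-5461 cells were left, and 8 members had enough UMIs. Of these 3 were called higher and 1 lower, and the matching share of all genes was not computed. The part of these markers in the feeder values was not tested.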

How the data were processed

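Per gene and barcode, the authors deposited UMI counts without normalization, from 10x Genomics 3′ v2 libraries; per the labels the genome build was mm10 and Seurat 2.3.4 was used, and the methods cite a published droplet pipeline built on Bowtie, with HISAT2 in its place for repeats. The tables held 3838 and 4922 barcodes. The deposited column of counts shared between genes served to check members. As in the methods, cells under 500 UMIs or above 20% mitochondrial UMIs were removed. Gene names and positions come from GENCODE for GRCm38 (54079 of 54146 identifiers matched without version), promoters from RefSeq. Cells of both libraries were clustered together without the members (scanpy 1.11.5, log-normalized to 10000 UMIs, 2000 variable genes less the members among them, 16 principal components, 15 neighbours, Leiden resolution 0.5), and a cluster was called feeders when at least 3 fibroblast markers were among its 50 leading genes. No doublet caller was run; cells with at least 5 UMIs of the other type's markers were left out as an alternative.

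UMIs were summed over the cells of a group and divided by their total (CPM). Ratios carry exact conditional binomial intervals and levels exact Poisson intervals at 95%, which cover counting error only and not differences between cultures. With 1 library per condition there is no p-value. The computation recovered known changes in simulated data. Members in high-mitochondrial cells and feeders were named when at least 1.5-fold from the median gene, with the 3 highest and 3 lowest; in the other lists, the 2 highest and 2 lowest in deep ES cells. The members and lists were chosen with earlier results of these data known. Canx, Pdia3 and the ERSE and C/EBP-ATF elements were picked after values had been seen, as were clusters and bins of mitochondrial share. TMM factors came from edgeR 4.0.16. The alternatives were library totals, TMM, a minimum of 50 UMIs per gene, means over cells, cells without the other type's markers, a higher UMI minimum per cell and a 2-fold line.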

Additional observations from a re-analysis of the deposited data

Results flagged for a closer look

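Among the members called in more than 1 cell group, 2 had opposite directions, and that difference was not tested, since each condition is 1 library. Nupr1 had a centred log2 ratio of CX-5461 over control of -0.81 in deep ES cells and 1.27 in feeders. Manf had 0.82 in high-mitochondrial cells and -0.81 in feeders.

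The barcodes left out by the filters, 63 of 71 in control and 225 of 225 in CX-5461 for more than 20% mitochondrial UMIs, also held the ER genes at a high level. In 225 such CX-5461 barcodes the 14 ER genes summed to 4913 CPM, and in 71 control barcodes to 3093 CPM. The amino acid genes summed to 937 and 759 CPM there. These barcodes were not clustered, so feeders were not set apart among them. Their Col1a2 stood at 47.4 CPM in CX-5461 and 150 CPM in control, against 0.730 and 0.925 CPM in deep ES cells. The part of feeder RNA in these values was not tested.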

How the results depend on the processing

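No paired analysis was possible because the barcodes carry no sample of origin, and for the same reason no replicate could be left out. Of 98 recomputed medians and counts, 72 stayed within the counting interval of the median, or within 1.5 times the count. On library totals, without centring, the deep ES medians were -0.32 for amino acid genes and 0.49 for ER genes, with 9 members higher and 5 lower; the high-mitochondrial median of the amino acid genes was -0.023, with 5 higher and 0 lower; 5 members were higher in feeders; and amino acid genes in control high-mitochondrial over deep ES cells had a median of 0.12. That last median was -0.030 with TMM, a reversal, and 0.0079 with a minimum of 50 UMIs. With 50 UMIs, the amino acid median in high-mitochondrial cells was -0.76 over 8 genes, with 6 members higher and 5 lower, and in feeders 6 were higher and 12 lower, since more genes were read. Without cells holding the other type's markers, 7 members were lower in deep ES cells, the amino acid median in high-mitochondrial cells was -0.11 over 2 genes, and in feeders it was 1.01 on 1 gene, with 1 member lower. With at least 3000 UMIs per high-mitochondrial cell that amino acid median was -0.072 over 2 genes. At 2-fold, 5 members were lower in deep ES cells, 1 higher and 0 lower in high-mitochondrial cells, and 1 higher and 2 lower in feeders. Except on library totals, the share of all genes called was not computed under these alternatives, so their counts have no background beside them. The cause of these shifts was not tested unless named. None of the called members changed sign under any alternative that could read it.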

Other observations

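A few deep ES cells had almost no mitochondrial UMIs, at most 0.5%, and in both libraries they stood high in the amino acid genes and in Atf4. This group was chosen after its values were seen. It held 8 control cells (median 13504 UMIs) and 14 CX-5461 cells (median 11815.5), too few for more than a description. The amino acid genes summed to 1644 CPM in the 8 control cells (95% counting interval 1422 to 1891) and to 2110 CPM (1899 to 2339) in the 14 CX-5461 cells, against 813 and 1175 CPM at 0.5 to 2% mitochondrial UMIs (1333 and 24 cells) and 658 and 566 CPM at 2 to 10% (1108 and 3976 cells). At most 57 of the 196 control UMIs and 66 of the 363 CX-5461 UMIs came from 1 cell.

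Asns stood at 654 and 913 CPM in these cells, against 249 and 246 CPM at 2 to 10%. Atf4 stood at 268 and 424 CPM against 133 and 99.3 CPM, and Nupr1 at 134 and 302 CPM against 13.8 and 13.6 CPM. Psat1 and Mthfd2, low in the CX-5461 library, stood at 116 and 157 CPM in its 14 cells and at 260 and 243 CPM in the 8 control cells. Shmt2 stood at 101 and 244 CPM. The ER genes did not follow, at 738 CPM (592 to 909) in control and 1325 CPM (1159 to 1509) in CX-5461, against 1030 and 1508 CPM at 2 to 10%. The stress outputs were also high in the 14 CX-5461 cells, with Ddit4 at 209 CPM, Atf3 and Trib3 at 98.8 and Ddit3 at 69.8, against 47.03, 13.4, 25.3 and 16.8 CPM at 2 to 10%. The ES markers summed to 7918 CPM in the control cells, against 7567 at 2 to 10%, and to 6214 CPM (5847 to 6598) in the CX-5461 cells, against 8159. The fibroblast markers summed to 268 and 401 CPM, against 185 and 294; their part in these values was not tested. Amino acid genes were thus high at the lowest mitochondrial shares, and at 10 to 15% they stood at 951 and 956 CPM, above the 647 and 608 CPM at 2 to 4%, whereas ER genes were high at the high shares.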
